A study of Rattus norvegicus with 16 samples.

Results

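The 8 genes Havcr1, Lcn2, Spp1, Gpnmb, Clu, Tff3, Cst3 and Hbegf are commonly read as markers of kidney tubule injury and repair, and their mRNA was followed here in every library of a rat kidney cortex RNA sequencing study. They were chosen by name, all 8 were found among the 32623 genes of the deposited count table, and all 8 were among the 14390 genes with enough counts to be tested. The 4 groups were old males, old females, young males and young females, with 4 libraries each. The labels give age only as old or young, state that the animals had no treatment and give all groups the genotype Homo without explaining it. Diabetic kidney disease stands in the title, while diabetes is recorded for none of the libraries. Nothing in the labels ties a library to its own animal, so every p-value here rests on the spread among these samples, which may be technical.

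KIM-1, the product of Havcr1, is a membrane protein of the TIM family that injured proximal tubule cells place on their surface, where it takes up dying cells and is shed into the urine. Lcn2 encodes the iron-siderophore carrier NGAL and Spp1 encodes osteopontin, and both are secreted by injured tubules and also by cells of the immune system. The secreted chaperone clusterin (Clu), the trefoil peptide Tff3, the protease inhibitor cystatin C (Cst3) and the EGF receptor ligand Hbegf are read with them as signs of damage or repair, and Gpnmb encodes a membrane glycoprotein known from both injured tubules and macrophages.

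Total counts per library ran from 10827485 in old male replicate 4 to 35957516 in old male replicate 2. The library identifiers start with DS or OP, which the labels do not explain. All young libraries, old male replicate 4 and old female replicates 3 and 4 carry DS, and the other old libraries carry OP, so age and prefix cannot be told apart fully. No sex label was contradicted by genes on chromosome Y. Old males also differed in markers of cell types. The summed level of 17 proximal tubule markers was 10014 to 11483 CPM (counts scaled to a common library size with TMM factors) in old males, against 20882 to 26896 in old females, 24962 to 27517 in young males and 22393 to 26721 in young females. The summed level of 16 macrophage and monocyte markers was 536 to 930 CPM in old males, against 134 to 227 CPM in old females, 196 to 231 in young males and 162 to 259 in young females. In bulk tissue, fewer cells of a type and less RNA per cell cannot be told apart.

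Between old and young males all 8 genes passed the test. Of these, 7 were higher in old males, where 25.3% of all tested genes were called higher, and Tff3 was lower, where 24.6% of all genes were called lower. All 4 libraries of a group lay above all 4 of the other for each of the 8 genes, against 23.7% of all genes with the old males above and 22.6% with the old males below. The members' median log2 fold change was 3.51, beside -0.0028 over all tested genes. The 8 genes together took 1.12%, 1.81%, 1.61% and 2.08% of the counts in old male replicates 1 to 4, and 0.0956% to 0.181% in the other 12 libraries. In the old male libraries Spp1 made up most of this share and ranked 4 to 9 among all genes by count. It ranked no higher than 77 elsewhere.

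**Figure D1:**
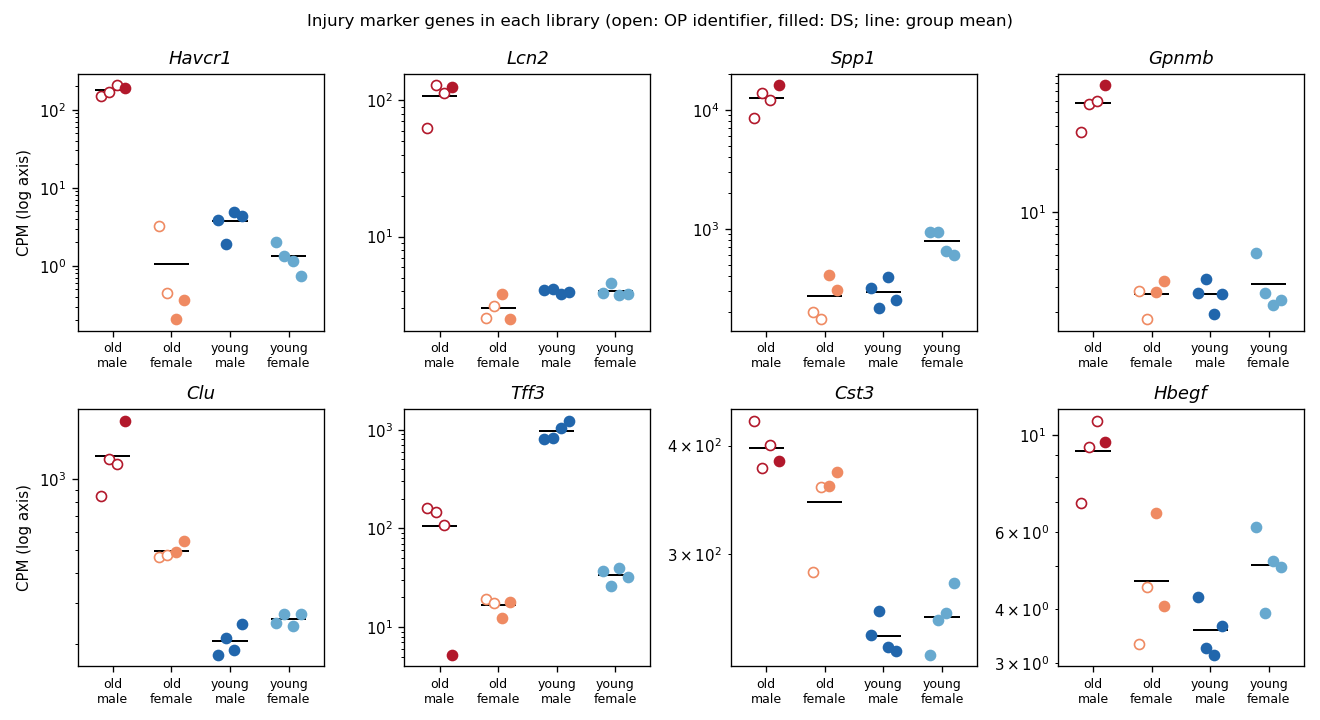
Level of each injury marker gene in CPM (log axis) in the 4 libraries of old males, old females, young males and young females, with 1 point per library, open for the OP prefix and filled for DS, and a line at the group mean. Old males stand above every other group for Havcr1, Lcn2, Spp1, Gpnmb, Clu and Hbegf. They also do so narrowly for Cst3, at 377 CPM in the lowest old male and 373 CPM in the highest old female. Young males stand highest for Tff3, and old male replicate 4 lies far below the other old males for Tff3 at 5.28 CPM.

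Havcr1 (ENSRNOG00000007243, chromosome 10), the gene of KIM-1, was at 149, 170.4, 205 and 192 CPM in old male replicates 1 to 4, against 3.85, 1.91, 4.94 and 4.39 CPM in young males. Every old male library was far above every young male library, and the difference was 5.54 on the log2 scale (SE 0.348, adjusted p = 1.04e-08, edgeR). Old females were at 3.25, 0.449, 0.207 and 0.363 CPM and young females at 2.02, 1.33, 1.16 and 0.749 CPM. Old female replicate 1 stood above all young females while the other 3 old females stood below them, and the female age difference did not pass (-0.35, adjusted p = 0.816). Without old female replicate 1 it was -1.91 and passed (adjusted p = 0.0490). Between the sexes Havcr1 was higher in old males than in old females by 7.44 (SE 0.409) and higher in young males than in young females by 1.54 (SE 0.502, adjusted p = 0.0265). The young groups overlapped, since the lowest young male was at 1.91 CPM and the highest young female at 2.02 CPM, and with DESeq2 the young sex difference did not pass (1.51, adjusted p = 0.0596). It was also lost when any 1 of 5 young libraries was left out, with adjusted p of 0.0535 to 0.0846 for young female replicates 2, 3 and 4 and young male replicates 3 and 4. With the inner medulla score described for Spp1 as a covariate it was 0.32 (adjusted p = 0.880). The order of the group means was old males, young males, young females and old females, and the last pair did not differ beyond their spread.

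Gpnmb (ENSRNOG00000008816, chromosome 4), whose membrane glycoprotein sits in lysosome-related compartments, was at 36.3, 56.6, 60.2 and 76.9 CPM in old males, against 2.75, 3.42, 1.96 and 2.68 CPM in young males. Old females were at 2.83, 1.79, 2.76 and 3.32 CPM and young females at 5.21, 2.75, 2.25 and 2.45 CPM. The old males stood alone, and the other 3 groups overlapped each other. The log2 fold change was 4.42 (SE 0.270, adjusted p = 9.22e-09) against young males and 4.42 (SE 0.267) against old females, while neither the female age difference (-0.24, adjusted p = 0.729) nor the young sex difference (-0.25, adjusted p = 0.594) passed.

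Lcn2 (ENSRNOG00000013973, chromosome 3), the gene of NGAL, was at 62.2, 129, 114 and 125 CPM in old males, against 4.06, 4.13, 3.82 and 3.90 CPM in young males. Old male replicate 1 was the low one, yet it stood well above all young males, and the difference was 4.76 (SE 0.206, adjusted p = 8.85e-10). Old females were at 2.55, 3.08, 3.796 and 2.48 CPM and young females at 3.83, 4.59, 3.70 and 3.81 CPM. The female age difference did not pass (-0.42, adjusted p = 0.382), and the 2 young groups had nearly equal means of 3.98 CPM. The young sex difference was 0.00 with a 95% interval of -0.47 to 0.47, and its sign turned under several scalings. Old males exceeded old females by 5.18 (SE 0.213).

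The start sites of these genes were read from RefSeq on the rat build GRCr8, which held 7 of the 8 members and not Clu. Windows from 250 bases before to 50 bases after each start were searched on both strands for the letters of an AP-1 site (TGANTCA), a kappaB site, a STAT site (TTCNNNGAA) and the M-box of MITF family factors (TCATGTG). Each motif was found in 1 of the 7 windows, and the motifs were chosen with the members in view. The AP-1 letters occur in 7.33%, kappaB in 47.3%, STAT in 8.87% and the M-box in 3.56% of all 33469 promoters of that length. The windows of Havcr1, Spp1, Cst3 and Hbegf held none of these letters. The windows with a match are shown, 5′ to 3′ along the gene's strand with matches in capitals. Lcn2, on the minus strand of chr3:36081731-36082030, matched kappaB on both strands at -243 to -233, where the 2 matches overlap, and on the minus strand at -81 to -72. Gpnmb, on the plus strand of chr4:79340878-79341177, matched AP-1 at -87 to -81 and, on the opposite strand, the M-box at -22 to -16.
Lcn2: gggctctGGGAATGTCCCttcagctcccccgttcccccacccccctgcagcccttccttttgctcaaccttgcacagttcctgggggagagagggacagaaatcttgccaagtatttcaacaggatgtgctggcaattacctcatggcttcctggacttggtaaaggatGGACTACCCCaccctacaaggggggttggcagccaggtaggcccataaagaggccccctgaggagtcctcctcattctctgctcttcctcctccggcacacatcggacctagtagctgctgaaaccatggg
Gpnmb: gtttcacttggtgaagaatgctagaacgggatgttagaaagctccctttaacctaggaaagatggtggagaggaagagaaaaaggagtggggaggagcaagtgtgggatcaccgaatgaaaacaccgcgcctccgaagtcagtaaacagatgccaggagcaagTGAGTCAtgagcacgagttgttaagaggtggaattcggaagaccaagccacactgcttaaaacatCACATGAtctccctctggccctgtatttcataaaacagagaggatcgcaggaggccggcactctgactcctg
A match describes these letters and is not shown to be a bound site.

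Spp1 (ENSRNOG00000043451, chromosome 14), the gene of the matrix protein osteopontin, was at 8562, 13737, 12071 and 16040.1 CPM in old males, against 320.4, 215, 397 and 251 CPM in young males. The groups lay far apart, and the difference was 5.41 (SE 0.322, adjusted p = 7.91e-09). In females it went the other way: old females were at 199.9, 174, 409 and 306 CPM and young females at 943, 939.7, 655 and 602 CPM. All old females lay below all young females, and the difference was -1.53 (SE 0.273, adjusted p = 0.00505). Young males were also below young females, by -1.41 (SE 0.272, adjusted p = 8.60e-04). Spp1 was lower in old females and in young males than in young females, and higher in old males than in any other group.

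Both Spp1 differences that involve young females stand beside a difference in markers of the inner medulla, the deepest kidney zone. The mean log2 CPM of 8 such genes was 3.88 to 5.05 in young females, against 2.09 to 2.96 in young males, 2.23 and 2.26 in old female replicates 1 and 2, 3.96 and 3.89 in old female replicates 3 and 4, and 2.10 to 2.65 in old males. With this score as a covariate the Spp1 difference between old and young females was -1.09 (adjusted p = 0.156), and that between young males and young females was -0.73 (adjusted p = 0.302). The difference between old and young males was 5.50 in the same fit. Both of the lost differences share the young female libraries. Another measure, the summed CPM of 9 inner medulla genes, set the groups out differently from the score. It was 388, 390, 428 and 455 in old female replicates 1 to 4 and 532 to 866 in young females. In young males it was 273 to 443, and in old males 94.3 to 219. This sum was not used as a covariate.

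Clu (ENSRNOG00000016460, chromosome 15), the gene of the extracellular chaperone clusterin, was at 848, 1222, 1163 and 1778 CPM in old males, against 180.4, 212, 189 and 243 CPM in young males. Old females were at 469.6, 477, 491 and 546 CPM, against 245, 268, 238 and 269 CPM in young females. Clu and Cst3 were the 2 members called higher with age in both sexes, with no overlap in either sex. The log2 fold change was 2.60 (SE 0.168, adjusted p = 1.42e-08) in males and 0.96 (SE 0.160, adjusted p = 0.00383) in females, and the female call was lost once the inner medulla score entered the fit (0.95, adjusted p = 0.0708). Old males stood above old females by 1.34 (SE 0.161), and the young groups did not differ beyond the test (-0.31, adjusted p = 0.159).

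Cst3 (ENSRNOG00000005195, chromosome 3), the gene of cystatin C, a secreted inhibitor of cysteine proteases made by most cells, moved least in males. It was at 427, 377, 401 and 384 CPM in old males, against 242, 258, 235 and 232 CPM in young males, and at 286, 359, 359.7 and 373 CPM in old females, against 229.9, 252, 257 and 278 CPM in young females. Both old groups lay above their young groups in every library. The age difference was 0.72 (SE 0.0830, adjusted p = 2.92e-06) in males and 0.44 (adjusted p = 0.00686) in females. Old males were above old females by 0.21 (adjusted p = 0.0482), a call that was kept under 8 of 31 other settings.

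Hbegf (ENSRNOG00000018646, chromosome 18), the gene of a membrane-anchored ligand of the EGF receptor, was at 6.97, 9.37, 10.8 and 9.65 CPM in old males, against 4.26, 3.26, 3.14 and 3.66 CPM in young males. Old females were at 3.32, 4.49, 6.63 and 4.05 CPM, against 6.15, 3.92, 5.15 and 4.97 CPM in young females. Old males lay above both groups they were tested against, and the 2 female groups overlapped. The difference was 1.36 (SE 0.198, adjusted p = 2.90e-05) between old and young males and 0.99 (SE 0.191, adjusted p = 3.88e-04) between old males and old females. Neither the female age difference (-0.13, adjusted p = 0.775) nor the young sex difference (-0.50, adjusted p = 0.0810) passed.

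Tff3 (ENSRNOG00000001159, chromosome 20), whose small peptide protects and repairs mucous surfaces, ran against the other 7 genes in the male age comparison. It was at 162, 148, 107 and 5.28 CPM in old males (3318, 6052, 3152 and 64 counts), against 809, 828, 1051 and 1234 CPM in young males. All old males lay below all young males, and old male replicate 4 lay far below the other old males. The difference was -3.21 (SE 0.555, adjusted p = 1.52e-04), and it was -7.54 with the DS libraries alone, where replicate 4 is the only old male. Old females were at 19.4, 17.6, 12.5 and 17.8 CPM and young females at 37.0, 26.0, 39.4 and 32.1 CPM. All old females lay below all young females, but the difference of -0.999 (SE 0.559, adjusted p = 0.341) did not pass in the fit that shares 1 spread over all 16 libraries. It passed when only the 2 female groups were fitted (-1.01, adjusted p = 0.00876) and when old male replicate 4 was left out (-1.01, adjusted p = 0.00452). The authors' deposited table, which gives young over old, lists it at 1.01 with a false discovery rate of 1.46e-08.

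Among young animals Tff3 had the largest sex difference of the 8, higher in young males than in young females by 4.86 (SE 0.606, adjusted p = 1.29e-05). Among old animals it was higher in old males by 2.66 (SE 0.565, adjusted p = 9.21e-04), but the groups overlapped because of old male replicate 4. Within the OP libraries, which leave that replicate out, the difference was 2.90 (adjusted p = 6.98e-05), and within the DS libraries, where that replicate stands alone against 2 old females, it was -1.54, in a fit that assumes this lone library to vary like the other groups. In old male replicate 4 the summed level of 8 thick ascending limb markers was 1547 CPM, against 5066 to 6052 CPM in the other old males, and that of the proximal tubule markers was 10014 CPM, against 10652 to 11483 CPM. The part of these differences in the Tff3 value was not tested.

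The Tff3 window, on the minus strand of chr20:9199284-9199583, is shown because it held the STAT letters at -70 to -62, in capitals.
Tff3: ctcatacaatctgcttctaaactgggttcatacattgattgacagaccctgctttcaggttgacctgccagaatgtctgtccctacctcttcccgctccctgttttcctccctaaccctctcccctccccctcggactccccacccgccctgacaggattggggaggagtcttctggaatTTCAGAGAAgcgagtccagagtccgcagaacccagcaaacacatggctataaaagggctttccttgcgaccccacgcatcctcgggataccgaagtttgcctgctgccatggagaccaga

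**Figure D2:**
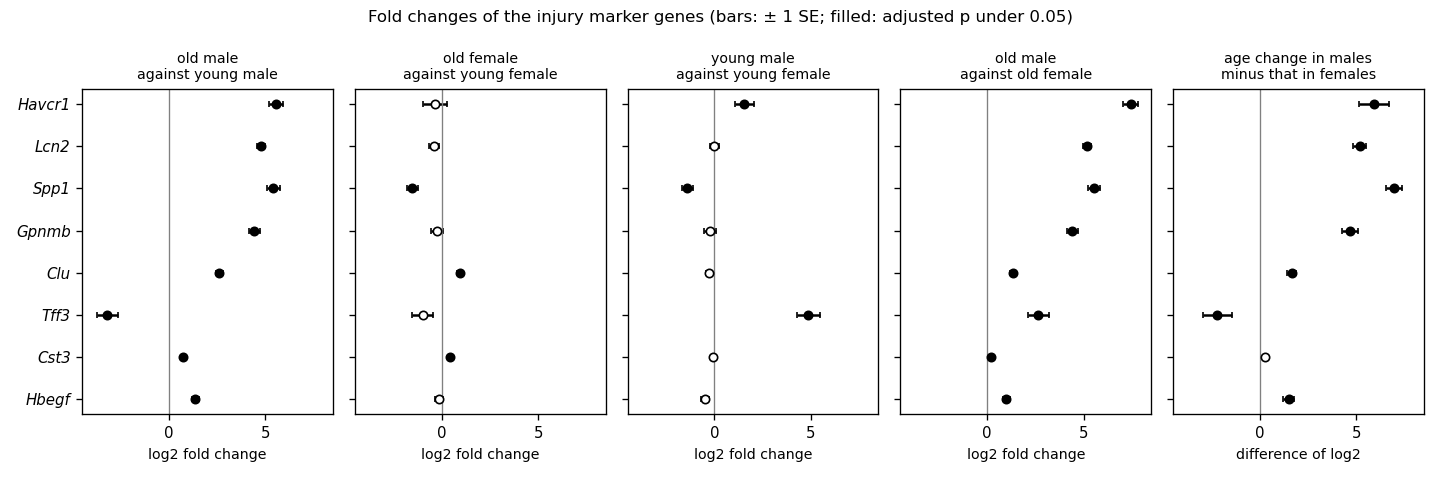
Log2 fold change of each injury marker gene with bars of 1 SE in 5 panels, which hold the male age comparison, the female age comparison, the sex comparison of young and then of old animals, and the male age change less the female one. Filled points passed at an adjusted p under 0.05. Old males were higher in 7 of 8 genes against young males and in 8 of 8 against old females, while the female age panel holds 3 filled points.

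Across the female age comparison 2 of the 8 genes were called higher (Clu and Cst3) and 1 lower (Spp1), where 2.54% of all tested genes were called higher, 3.17% lower and 5.71% either way. The groups did not overlap for 2 genes with old females above and for 2 with old females below, against 5.61% and 5.46% of all genes. The members' median log2 fold change was -0.29, beside 0.00025 over all genes. Between young males and young females 3 of the 8 passed, Tff3 and Havcr1 higher and Spp1 lower, where 31.8% of all genes passed in either direction, and the groups did not overlap for 1 gene in each direction, against 16.4% and 14.7% of all genes. Between old males and old females all 8 were called higher, where 25.5% of all genes were called higher, 23.8% lower and 49.3% either way. For 7 of them the groups did not overlap, against 23.8% of all genes with old males above and 20.8% with old males below.

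The age differences of the sexes were also compared with each other, as the change in males minus the change in females. Of the 8 genes 6 were called higher, where 19.4% of all genes were, and Tff3 was called lower, where 19.3% were, and 38.7% of all genes passed in either direction. The differences were 6.94 for Spp1 (SE 0.416, adjusted p = 3.82e-08), 5.89 for Havcr1 (SE 0.778, adjusted p = 2.76e-05), 5.18 for Lcn2 (SE 0.325, adjusted p = 5.24e-08) and 4.67 for Gpnmb (SE 0.418, adjusted p = 1.31e-06). Clu, at 1.64 (SE 0.226), and Hbegf, at 1.50 (SE 0.284), differed less. For Cst3 the male and female age changes differed by 0.28 with a 95% interval of 0.05 to 0.51, which did not pass after adjustment (adjusted p = 0.0699). The Tff3 difference of -2.21 (SE 0.763, adjusted p = 0.0303) did not pass in 9 of 29 other settings, among them leaving out old male replicate 3, old female replicate 1 or 4, young male replicate 4 or young female replicate 2, with adjusted p of 0.0502 to 0.0589.

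Every call between old and young males was kept with the DS libraries alone, where old male replicate 4 stands against the 4 young males and is assumed to vary like the other groups. There the log2 fold change was 5.64 for Havcr1, 4.96 for Lcn2, 5.75 for Spp1, 4.84 for Gpnmb, 3.10 for Clu, 0.66 for Cst3 and 1.42 for Hbegf. Within the OP libraries, which hold old animals only, old males exceeded old females by 6.59 for Havcr1, 5.16 for Lcn2, 5.92 for Spp1, 4.47 for Gpnmb and 1.18 for Clu, and Hbegf was also higher (adjusted p = 0.00544), while Cst3 was not called (0.31, adjusted p = 0.0738). Within the DS libraries the same comparison, with 1 old male, lost Hbegf (0.84, adjusted p = 0.0582) and Cst3 (0.05, adjusted p = 0.793).

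Levels can be set against each other between genes only per length of transcript, on the RPKM scale. In old males Spp1 was the highest of the 8 at 9328 ± 2405 RPKM (SD, n = 4 here and below), followed by Clu at 750 ± 234, Cst3 at 567 ± 23.9, Tff3 at 255 ± 169, Lcn2 at 136 ± 40.7, Havcr1 at 51.5 ± 7.88, Gpnmb at 28.1 ± 8.32 and Hbegf at 4.48 ± 0.849 RPKM. Clu and Cst3 overlapped, with libraries from 493 to 1060 and from 546 to 593 RPKM. In old females Cst3 led at 428 ± 52.2 RPKM, with Clu at 258 ± 19.5 and Spp1 at 176 ± 74.4. Tff3 led in young males at 1896 ± 413 RPKM, ahead of Cst3 at 275 ± 10.7 and Spp1 at 175 ± 47.6. Spp1 led in young females at 527 ± 137 RPKM, ahead of Cst3 at 328 ± 19.4. Havcr1 was the lowest of the 8 in the 3 groups other than old males, at means of 0.264 RPKM in old females, 0.867 in young males and 0.344 in young females.

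How far the genes kept together can be seen among the 4 old male libraries, which are too few for a correlation. Replicate 1 was the lowest library for 6 of the 8 genes, Havcr1, Lcn2, Spp1, Gpnmb, Clu and Hbegf, and the highest for Tff3 and Cst3. Replicate 4 was the highest for Spp1, Gpnmb and Clu, replicate 3 for Havcr1 and Hbegf, and replicate 2 for Lcn2. The highest library was above the lowest by a ratio of 1.13 for Cst3, 1.38 for Havcr1, 1.54 for Hbegf, 1.87 for Spp1, 2.07 for Lcn2, 2.10 for Clu, 2.12 for Gpnmb and 30.7 for Tff3.

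Of the 28 pairs of genes 2 ranked the 4 old males in the same full order, Havcr1 with Hbegf (3, 4, 2, 1 from high to low) and Spp1 with Clu (4, 2, 3, 1). The ratio of Havcr1 to Hbegf CPM was 18.2 to 21.3 over the 4 libraries, and that of Spp1 to Clu was 9.02 to 11.2. Tff3 had the reverse of the order of Gpnmb, and the ratio of Spp1 to Tff3 CPM ran from 52.9 in replicate 1 to 3040 in replicate 4. The summed macrophage markers were at 536, 755, 732 and 930 CPM in old male replicates 1 to 4, the same order as Spp1 and Clu. The summed neutrophil markers, of which Elane and Cd177 had no counts in old males, were at 14.9, 8.15, 9.51 and 6.60 CPM in old males, against 20.4 to 54.0 CPM in old females, 22.5 to 37.7 in young males and 35.3 to 52.5 in young females. Mmp9 made up most of this neutrophil sum. It was at means of 6.27 CPM in old males, 29.6 in old females, 29.0 in young males and 39.1 in young females. Csf3r was highest in old males instead, at 2.17 CPM, against 0.296 in old females, 0.519 in young males and 0.668 in young females. The part of the macrophage and neutrophil markers in the members' levels was not tested.

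**Figure D3:**
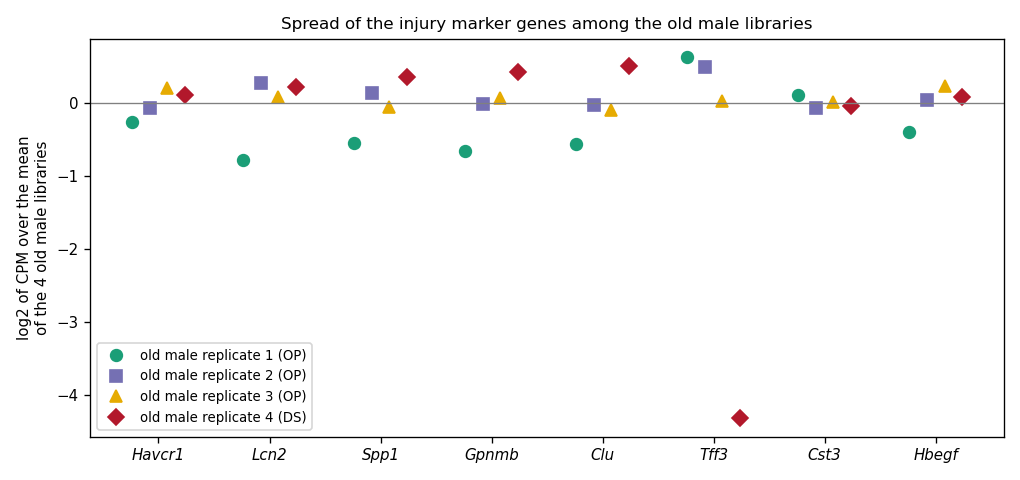
Log2 of each injury marker gene's CPM over its mean in the 4 old male libraries, with 1 symbol per library. Replicate 1 lies lowest for 6 of the 8 genes, replicate 4 lies highest for Spp1, Gpnmb and Clu, and the Tff3 value of replicate 4 lies far below all others.

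The genes that varied most like each member were sought over 11310 genes with a mean of at least 2 CPM and a proper symbol, by Pearson's r of the deviations of log2 CPM from the group means over all 16 libraries. These r describe the likeness within groups and carry no test. For Tff3 they were Kap (0.987), the androgen-regulated kidney protein gene known from mouse proximal tubules, the organic anion transporter Slc22a7 (0.983) and the guanylate cyclase subunit Gucy1b2 (0.978). Kap was at 1569, 1621, 1447 and 271 CPM in old males, against 5611 to 6879 CPM in young males, and it was low in the same old male library as Tff3. Gucy1b2 was at 33.9, 40.4, 28.8 and 0.742 CPM in old males, against 107 to 135 CPM in young males. Slc22a7 was at 3.02, 1.90, 1.73 and 0.0824 CPM in old males, the last from 1 count, and at 8.12 to 10.2 CPM in young males. Without old male replicate 4 the r fell to 0.777 for Kap, 0.765 for Slc22a7 and 0.461 for Gucy1b2.

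**Figure D4:**
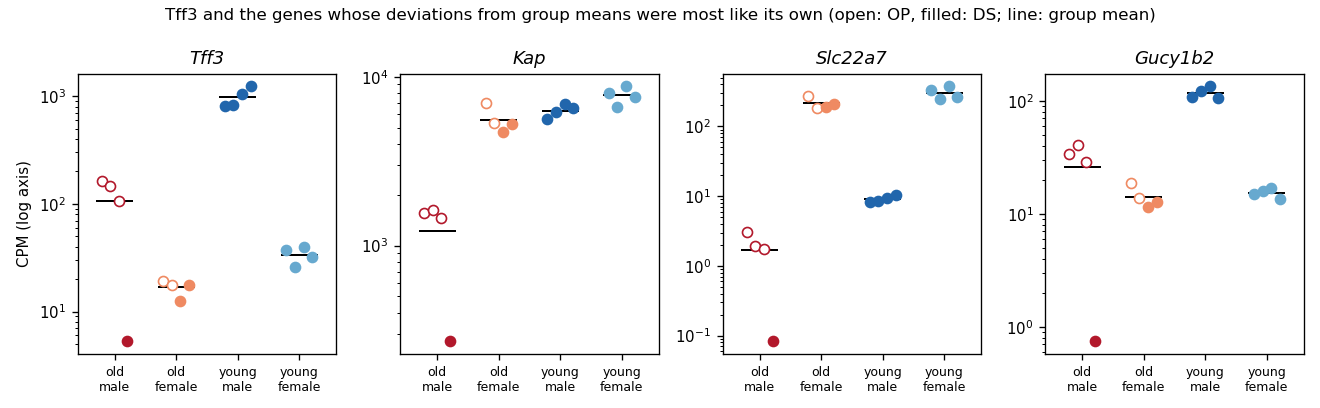
CPM (log axis) of Tff3 and of Kap, Slc22a7 and Gucy1b2 in the 4 libraries of old males, old females, young males and young females, open for the OP prefix and filled for DS, with a line at the group mean. All 4 genes are lowest in old male replicate 4, where Tff3 was at 5.28 and Kap at 271 CPM, while their levels in the other groups follow different orders.

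For Hbegf the closest was Socs3 (0.852), the feedback inhibitor of cytokine signalling, which was at 10.1, 13.8, 13.2 and 16.4 CPM in old males and at 0.812 to 1.24 CPM in young males, followed by Arid1b (0.852) and Atf7ip (0.848). For Spp1 they were the phospholipase family gene Pld4 (0.894), the annexin gene Anxa5 (0.885) and the guanylate-binding protein gene Gbp5 (0.868). For Lcn2 they were Lsr (0.863) and Olfm4 (0.841), which encodes a secreted glycoprotein, and the third was Arpc1b, an actin-nucleating complex subunit. Clu was most like the phosphatase gene Dusp7 (0.926), Kdm1a (0.910) and Sdcbp (0.895), and Gpnmb most like the kinase gene Tyk2 (0.837), Anxa2 (0.822) and Mettl17 (0.813). For Havcr1 the closest was Washc2c (0.935), and Nbr1 (0.886) and Pggt1b (0.885) followed. Without old female replicate 1 their r fell to 0.784, 0.620 and 0.520. For Cst3 they were Hmx2 (0.935), Spint2 (0.903) and Uqcrc1 (0.902). Among the members themselves the deviations of Havcr1 and Cst3 had an r of -0.90, and old female replicate 1 was the highest old female for Havcr1 and the lowest for Cst3.

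The receptors and processing enzymes of the members were described from a list of 18 genes. Between old and young males 7 were called higher, 1 lower and 10 did not pass, with a median of 0.25 beside -0.0028 over all tested genes. Of all tested genes 25.3% were called higher there and 24.6% lower. The share of this list called either way was near that of all genes, so its count says nothing particular of it. Cd44, a receptor of osteopontin and hyaluronan, was at 115 ± 15.1 CPM in old males and 13.4 ± 2.37 CPM in young males. The log2 fold change was 3.10 (SE 0.162, adjusted p = 3.13e-09). The integrin subunits Itga4 (2.01) and Itgb1 (0.40), which also bind osteopontin, were higher too. Lrp2, the gene of megalin, which takes up NGAL and cystatin C from the filtrate, was lower, at 1583 ± 175 CPM in old males and 2831 ± 43.0 CPM in young males (difference -0.84, SE 0.125, adjusted p = 3.61e-05). The sheddase Adam17, which cleaves HB-EGF and KIM-1, was called higher by 0.27 (adjusted p = 0.0144), while Adam10 (0.03, adjusted p = 0.789) and the EGF receptor Egfr (0.24, adjusted p = 0.232) did not pass. Between old and young females 1 of the 18 passed, Itga4, which was lower (-1.50, adjusted p = 0.00899). That is near the 5.71% of all tested genes that passed there.

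Of 9 other tested ligands and receptors of the EGF family none was called higher and 4 were lower in old males than in young males, Btc (-0.88, SE 0.183, adjusted p = 8.14e-04), Egf (-1.06, SE 0.266, adjusted p = 0.00340), Erbb3 (-0.40, adjusted p = 0.00535) and Areg (-1.13, adjusted p = 0.0409). In this comparison 25.3% of all tested genes were called higher and 24.6% lower. The share of the family called either way was near that of all genes, so its count says nothing particular of it. With library totals alone as the scaling, 3 of the 9 were called higher and 2 lower. That scaling moves the median of all genes by 0.33 in the male age comparison. Egf was at 78.1 ± 37.3 CPM in old males and 163 ± 17.0 CPM in young males. In the female age comparison none of the 9 passed in edgeR, DESeq2 or limma-voom, and 0 had an unadjusted p under 0.05. In edgeR 5.71% of all tested genes passed there.

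The TIM family and the genes of apoptotic cell uptake, the process KIM-1 takes part in, had 8 of 11 tested genes called higher, 2 lower and 1 not passed between old and young males. Over all tested genes 25.3% were called higher there and 24.6% lower. The uptake receptor Axl rose by 2.18 (SE 0.166), its ligand Gas6 by 1.08 (SE 0.0852) and the scavenger receptor Scarb1 by 1.35 (SE 0.120). The related receptors Tyro3 (-1.12) and Mertk (-0.54) were lower. In the female age comparison none of the 11 passed in edgeR or limma-voom, 4 had an unadjusted p under 0.05 in edgeR, and 1 was called higher with DESeq2. In edgeR 5.71% of all tested genes passed there. Among cystatins and cathepsins, 12 of 13 were called higher in old males and none lower, with Ctsz at 1.64 (SE 0.132), Ctsd at 1.30 (SE 0.133) and Cst7 at 3.41 (SE 0.355), and Ctsh did not pass (0.52, adjusted p = 0.0614). In females Ctsc was called higher with age (0.57, adjusted p = 0.00795) and the other 12 did not pass.

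Of 31 tested genes on a list of other tubule injury and repair genes, 24 were called higher in old males than in young males, 2 lower and 5 did not pass, with a median of 1.35. Over all tested genes 25.3% were called higher and 24.6% lower. Anxa2 rose by 1.93 (SE 0.104, adjusted p = 3.33e-09), the metalloproteinase inhibitor Timp1 by 2.97 (SE 0.186) and the intermediate filament gene Vim by 2.15 (SE 0.153). Sox9, a transcription factor of tubule repair, did not pass between old and young males (-0.22, adjusted p = 0.363) and was higher in young males than in young females by 3.32 (SE 0.227, adjusted p = 2.28e-08). In the female age comparison 3 of the 31 were called higher, among them the cell cycle inhibitor Cdkn1a (1.23, adjusted p = 0.00174), and 2 lower, among them Anxa2 (-0.50, adjusted p = 0.00952). Over all tested genes 2.54% were called higher there and 3.17% lower.

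The same lists were read in the comparisons between the sexes. Between old males and old females 25.5% of all tested genes were called higher, 23.8% lower and 49.3% either way. Of the 31 other injury genes 26 were called higher and 2 lower, with Timp1 at 2.47 (SE 0.177) and Anxa2 at 1.45 (SE 0.102). There 10 of the 18 receptors and shedding enzymes were higher and 3 lower, with Cd44 at 3.55 (SE 0.167), and 11 of 13 cystatins and cathepsins were higher and 1 lower. In the EGF family 3 of 9 were higher, among them the ERBB ligand Nrg1 (1.64), and 2 lower, among them Egf (-1.60). The share of this family called either way was near that of all genes, so its count says nothing particular of it. Between young males and young females the next 2 lists had shares near the 31.8% of all genes that passed, so these counts say nothing particular of them. There 4 of the 31 other injury genes were higher and 7 lower, among them Anxa2 (-0.98, SE 0.103), and 4 of the 18 receptors and shedding enzymes were higher and 3 lower, among them Itgb6 (-1.55, SE 0.112). Of the 14 macrophage genes none passed between the young groups in edgeR, DESeq2 or limma-voom, and 0 had an unadjusted p under 0.05. The age change in males exceeded that of females for 22 of the 31 other injury genes, 7 of the 18 receptors and shedding enzymes, 8 of the 11 uptake genes and 7 of the 13 cystatins and cathepsins, and it was below it for 3, 2, 2 and 0 of them. In that difference 19.4% of all tested genes were called higher, 19.3% lower and 38.7% either way.

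Of the cell type lists, those of macrophages, T and NK cells, B cells and proximal tubule moved most clearly between old and young males. There 25.3% of all tested genes were called higher and 24.6% lower. Podocyte, thick ascending limb, inner medulla and endothelial lists had shares called either way near that of all genes. The counts of these lists say nothing particular of them. Distal tubule, principal cell, intercalated cell and urothelium lists had lower shares. Between old and young males 14 of 14 tested macrophage and monocyte genes were called higher, with the lipid-sensing receptor gene Trem2 at 3.67, Cd68 at 1.69 and Lyz2 at 1.96, and so were 12 of 12 T and NK cell genes, among them Cd5 (3.17), Lck (2.73) and Cd3e (2.71), and 5 of 5 B and plasma cell genes, among them Jchain (4.36) and Cd79b (5.40). Of 17 proximal tubule genes 13 were called lower, among them Fbp1 (-1.08), Aqp1 (-1.05) and Acy3 (-2.01), and 3 higher. Of 10 fibroblast and pericyte genes 5 were higher, among them Dcn (1.64), Postn and the collagen gene Col3a1 (1.75), and 1 lower, while in females 3 were lower with age, among them Col3a1 (-1.40). Of the 2 tested neutrophil genes Csf3r was higher (2.00) and Mmp9 lower (-2.18). Of 9 endothelial genes 5 were lower and none higher in edgeR, among them Emcn (-0.57), Kdr (-0.45) and Flt1 (-0.41). Of 8 podocyte genes 3 were lower, among them Podxl (-0.66) and Wt1 (-0.84), and Cdkn1c was higher (0.93). In the thick ascending limb 2 of 8 were lower, Cldn10 (-0.97) and Egf, and 2 higher, among them Cldn19 (0.92). Of 8 inner medulla genes Cryab (-1.99) was among 2 that were lower, and Fxyd3 (3.53) and Akr1b1 (1.07) were higher. Fxyd3 rests on few counts, at means of 0.703 CPM in old males and 0.0453 CPM in young males. Cd79b (2.56 and 0.0547 CPM) and Postn (2.97 and 0.0484 CPM) also rest on few counts in young males. Distal tubule, principal cell, intercalated cell and urothelium lists had 1 gene each past the test, Trpv5 (1.90, higher), Scnn1b (0.36, higher), Rhbg (-0.37, lower) and Krt14 (3.29, higher). The part of these cell type differences in the levels of the 8 members was not tested.

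**Figure D5:**
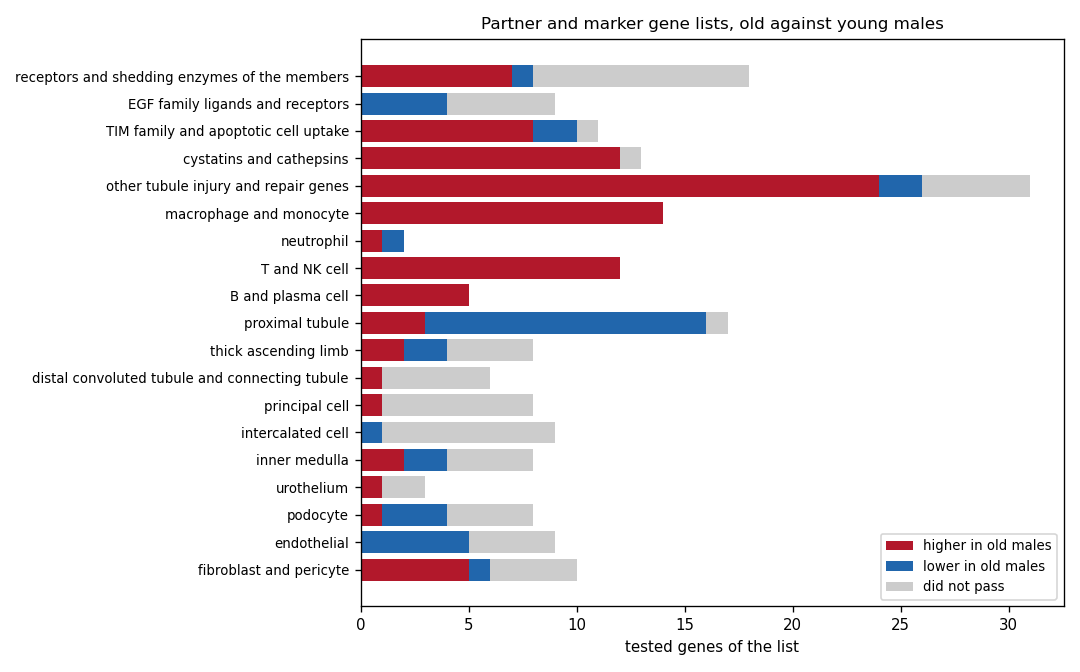
Number of tested genes on each list of partners of the injury markers, other injury genes and cell type markers that were higher, lower or not called between old and young males (adjusted p under 0.05). The injury, cathepsin, macrophage, T and NK cell and B cell lists are mostly higher in old males, the 2 tested neutrophil genes are split, and 13 of 17 proximal tubule genes are lower. Over all tested genes 25.3% were called higher and 24.6% lower.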

How the data were processed

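RNA was sequenced from kidney cortex in 16 rat libraries. An RNeasy Micro kit and a stranded TruSeq mRNA kit were used, per the labels' protocols. The build Rnor_6.0 and edgeR 3.8.6 appear in the submitters' processing notes with no stated role; aligner, counter and strand setting are not given in these sources. Tests used the authors' deposited counts per gene. The deposited RPKM values follow exactly from these counts, the library totals and the listed lengths plus 1, and served to compare levels between genes. The authors deposited 4 lists of log2 fold changes with false discovery rates (adjusted p-values), of which the 2 age lists give young over old.

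Genes were kept with filterByExpr (14390 genes, 99.932% of counts), scaled with TMM factors and fitted with edgeR 4.0.16 (R 4.3.3, quasi-likelihood test, two-sided) with a mean for each of the 4 groups over all 16 libraries (biological coefficient of variation 0.130). P-values were adjusted by Benjamini-Hochberg over all tested genes, and a gene passed under 0.05. Adjusted p-values come from this fit unless another setting is named. The members, lists and motifs were chosen with earlier results of these data known. Genes were named from the 3 of each list with the smallest p in old against young males, up to 2 that passed in each other comparison, and the 3 most like each member; not every such gene is printed, and those printed were picked with their values seen. Genes named beyond this (Lrp2, Adam17, Adam10, Egfr, Areg, Mertk and Ctsh) were chosen after their values were seen. The fits were tested on simulated data. Every pair of libraries within a group differed by more than sampling noise. Levels rest on 10827485 to 35957516 counts per library.

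Alternatives were other scalings, DESeq2 1.42.0, limma-voom (limma 3.58.1), other filters and thresholds, only the groups compared, a replicate block, the prefix of the identifier or an inner medulla score as a covariate, libraries of 1 prefix alone, and leaving out every library once. Their use on the counts of the other gene lists was chosen after seeing the data.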

Additional observations from a re-analysis of the deposited data

Results flagged for a closer look

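In 4 of 32 sets of 4 libraries, 1 library lay apart from the other 3 by Dixon's criterion, which chance meets in about 1 of 20 sets. Havcr1 was at 3.25 CPM in old female replicate 1, against 0.207 to 0.449 CPM in the other old females, and Cst3 was low in the same library at 286 CPM, against 359 to 373 CPM. Gpnmb was at 5.21 CPM in young female replicate 1, against 2.25 to 2.75 CPM in the other young females. Lcn2 was at 4.59 CPM in young female replicate 2, against 3.70 to 3.83 CPM. The low Tff3 value of old male replicate 4, 5.28 CPM, did not meet the criterion on CPM, with a gap of 0.650 of the range. On log2 CPM, a scale added after seeing the data, that gap was 0.879 and did meet it, while the gap of Havcr1 in old female replicate 1 was 0.719 and did not. On that scale 4 sets met it, Tff3 and Lcn2 in old males, Cst3 in old females and Lcn2 in young females, of which 2 also met it on CPM, so which libraries stand apart depends on the scale.

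For 7 of the 8 genes the age change in males differed from that in females by the test of the difference itself (edgeR, all 16 libraries). It was 6.94 on the log2 scale for Spp1, 5.89 for Havcr1, 5.18 for Lcn2, 4.67 for Gpnmb, 1.64 for Clu and 1.50 for Hbegf, and -2.21 for Tff3.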

How the results depend on the processing

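Over all alternatives, 1110 of the members' fold changes kept direction and side of the threshold, 49 were no longer called, 16 became called and 25 changed sign. All 8 calls between old and young males were kept, except that Cst3 (0.72) misses a limit of 1 on the log2 scale. Without 1 library at a time, 8 to 8 members passed in old against young males, 3 to 4 in old against young females, 2 to 4 in young males against young females, 7 to 8 in old males against old females, and 6 to 8 in the difference of the age changes. In young males against young females, where 3 passed, 6 passed with library totals alone, 5 with only the 2 groups and 1 with the inner medulla score. In old against young females, where 3 passed, 1 passed with that score and 1 with a log2 limit of 1.

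The sign turned for Lcn2 in young males against young females (0.00026 in the reported fit) to -0.0062 with RLE factors, -0.047 with upper-quartile factors, -0.18 with library totals, -0.0071 with DESeq2, -0.011 without a filter, -0.017 with the CPM filter, -0.012 with only the 2 groups, -0.0041 within DS libraries and -0.14 given the inner medulla score, and it ran from -0.032 to 0.055 without 1 library at a time. Hbegf in old against young females turned to 0.072 within DS libraries and to 0.14 given the inner medulla score, and Cst3 in young males against young females to 0.091 given that score. Without 1 library at a time Gpnmb ran from -0.37 to 0.11 in old against young females and from -0.38 to 0.092 in young males against young females, both highest without young female replicate 1. Tff3 in old males against old females turned to -1.54 with DS libraries alone and was not called with limma-voom (1.95, adjusted p = 0.0755). The causes were not tested. Depth limits Havcr1 in old females, where replicates 2 to 4 held 7, 3 and 6 counts. With library totals alone 29 of 32 group means of the members moved by less than 1 SD.

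Libraries with the same replicate number had low correlations of their deviations (r of -0.131 to 0.191). The r was above 0.1 for 2 of 4 pairs in young males against young females, 0.123 for replicate 1 and 0.191 for replicate 4. It was above 0.1 for none in the other 3 comparisons. Every library correlated best with its own number in no comparison (at most 2 of 4, in the young animals). With the replicate block, 8, 3, 3 and 7 members passed in the 4 group comparisons and 7 in the difference of the age changes, and the Cst3 difference between old males and old females (0.21) was no longer called (adjusted p = 0.0522).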
